A study of Mus musculus with 15 samples.

Results

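The livers of mice given the carcinogen diethylnitrosamine (DEN) were set against those of mice given saline, over all genes of a single-colour microarray. The members were chosen by their titles, as the arrays of the DEN group (T1 to T5) and of the control group (C1 to C4), which are 9 of the 15 arrays of the series. C3 and C4 carry the same RNA code and so do T4 and T5, so each such pair was averaged to 1 liver, which left 4 T livers and 3 C livers of 13 livers in all. All animals were CD1 males. Group C received saline and group T received DEN at 25 µg per g body weight on day 15 after birth. Both groups then received the empty plasmid, 50 µg weekly from week 28 to week 34, by hydrodynamic gene delivery, a fast injection of a large volume into the tail vein, and were killed at week 35. An age of 10 weeks stands in the sample records instead. The controls thus carry the injections and the plasmid as well, and an untreated liver was not part of the comparison. The records call the T livers hepatocellular carcinoma, but they do not say whether a tumour nodule, the tissue beside it or both went into the RNA. In such bulk RNA, fewer cells of a type and less RNA per cell cannot be told apart.

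DEN is turned into a DNA-alkylating agent by cytochrome P450 enzymes of the hepatocyte. Given once to an infant mouse, it leaves mutated hepatocytes that grow into foci, adenomas and hepatocellular carcinoma over the following months. A healthy hepatocyte makes fatty acids and sterols when fed, burns fatty acids in mitochondria and peroxisomes when fasted, clears foreign compounds, and secretes most plasma proteins. Liver tumours commonly switch part of this programme off and bring back fetal genes such as Afp.

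Values below are log2 signals after background correction and quantile normalization, and a difference is T minus C on that scale unless a fold is named. A gene is said to have risen or fallen where its adjusted p in limma was under 0.05, and it is detected on an array where at least 1 of its probes is marked as well above the background. Of 22032 genes tested, 525 changed (2.38%), 268 upwards (1.22%) and 257 downwards (1.17%). For 4206 genes (19.1%) the T and C livers did not overlap, and 523 of the 525 were among them. A lack of overlap is therefore no separate support for a called gene, and it was required of the largest rises and falls named below. Most changes were small. The median size among the 525 was 0.52, and 70 exceeded 2-fold, 31 higher and 39 lower in T. In 521 of the 525 the difference had the same direction on both slides, which each held livers of both groups. These genes were chosen by that same difference, and livers C3 and T4 were on both slides, so the agreement is no independent check. With the slide as a term 799 genes changed, 476 of them shared. The fit also takes in the livers of the other arm of the series, and without them 359 genes changed, 237 of them shared. The count fell to 125 without C1, 104 without C2, 191 without T2, 89 without T3 and 141 without T4.

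Since quantile normalization makes the arrays equal in distribution, a change is one relative to the other genes. The direction of a fall depends on this. When the arrays were scaled to their median instead, the detected genes as a whole moved up by 0.64 in T, and 2818 genes rose and 14 fell. With scaling to the 75th percentile they moved up by 0.32, and 1802 rose and 511 fell. Differences of gene lists are therefore also given less the median of all 8546 genes detected on every C and T array, which was 0.01 here. That relative median kept its sign under all 22 alternatives for the lists of sterol synthesis, fatty acid synthesis, fatty acid oxidation, P450 enzymes, conjugating enzymes, glycolysis and peroxisomes, all below 0, and for the lists of tumour markers, acute phase, endoplasmic reticulum (ER) chaperones, ER translocation and ribosomes, all above 0, although the raw medians of the former were above 0 with median scaling. The sign held for other lists too, also for some with no member called, such as antigen presentation and hepatocyte transcription factors. Keeping it therefore does not set the named lists apart. Some of the 22 could not change a median. The fit of C and T alone, trended and robust eBayes and the t-tests alter only the error term.

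**Figure D1:**
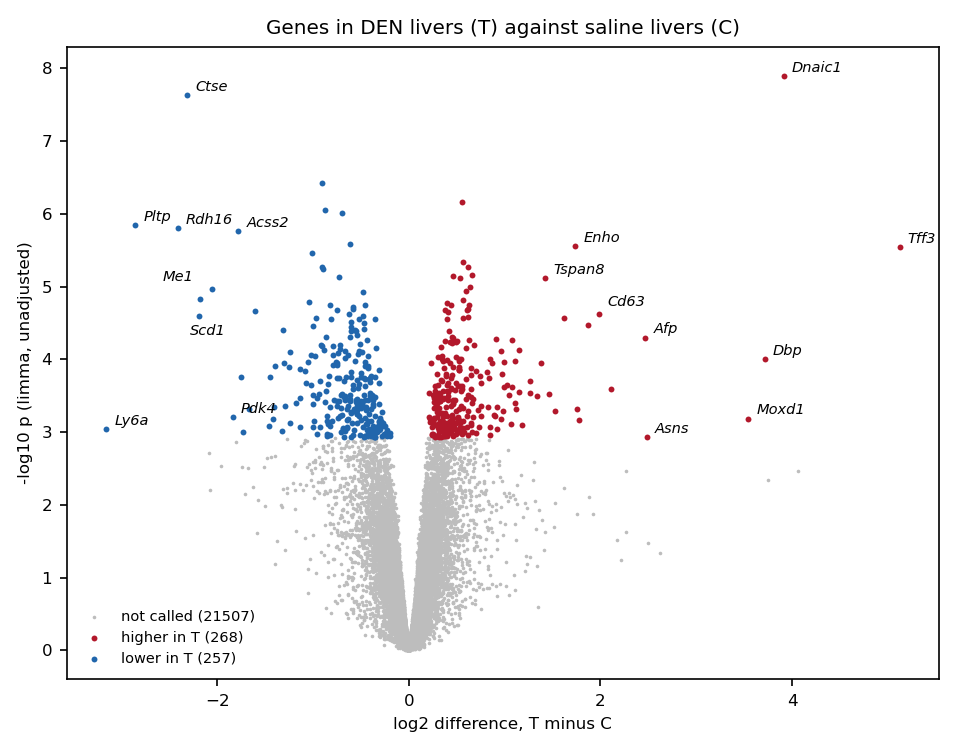
Each point is a gene, with the log2 difference between T and C livers on the x axis and the unadjusted p of limma, as -log10, on the y axis. The 268 genes called higher are red, the 257 called lower are blue and the 21507 others are grey, and the named points are among the largest changes or lowest p.

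The tissue was liver in both groups. Alb, serum albumin, read 18.15, 18.25 and 18.21 in the C livers and 18.21, 17.60, 17.95 and 17.58 in the T livers, and did not pass the test (adjusted p = 0.155). All 15 hepatocyte markers were detected, with a median difference of -0.11, and 2 of them fell. Ttr, the thyroxine carrier transthyretin, read 16.81, 17.07 and 16.57 in C and 16.04, 15.60, 15.82 and 15.80 in T, a difference of -1.01 (SE 0.13, adjusted p = 0.00594). Every T liver was below every C liver. Both falls, of Ttr and of the fatty acid binding protein Fabp1, had differences above 0 (0.18 and 0.10) with median scaling, below the 0.64 of the detected genes. Gas1, the gene that another arm of the series delivered, differed by 0.01 between T and C (adjusted p = 0.984).

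The number of detected genes was between 8924 and 13398 on the C arrays and between 10883 and 11718 on the T arrays, so the T range lay within the C range. On every C and T array 8546 genes were detected, of which 131 rose and 207 fell, and on none 7640, of which 7 changed. Detected on every T array and no C array were 40 genes (0.182%), and 9 (0.0408%) showed the reverse. Of the 40, 16 passed the test in T. The tetraspanin Tspan8 read 6.07, 6.03 and 5.99 in C and 7.16, 7.69, 7.66 and 7.30 in T, at least 2.13-fold higher in T (adjusted p = 0.00773). Moxd1, a monooxygenase-like protein, read 6.004, 5.781 and 5.843 in C and 6.55, 11.34, 9.17 and 10.61 in T, at least 8.35-fold higher (adjusted p = 0.0401). Its adjusted p was 0.0678 to 0.109 when any liver but T1 was left out and 0.000595 without T1, and it did not pass with cyclic loess, with C and T alone in the fit, with trended and robust eBayes or with the replicate block. T1 lay close to the C livers for Moxd1 and the other T livers far above them. "At least", here and below, sets the mean of the group with detection against a limit in the other group. That limit is, for each liver, the higher of the weakest signal still marked as above background and the gene's own value. A gene below that mark has only an upper limit there. Afp, Asns, Miox, Btg2, Pygb and Tfrc, given below with differences, were detected on 1 of the 4 C arrays, and Emr1 on 2. Their C values lie near the background, so the sizes of their differences are uncertain.

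Among the others detected in T alone were Gldn, a protein of peripheral nerve, at least 2.09-fold higher (adjusted p = 0.0196), and the receptors Tlr1, Mst1r and Gpr56, whose bounds were 1.18, 1.07 and 1.17-fold. Cdkn2c, an inhibitor of cyclin-dependent kinases, was at least 1.08-fold higher (adjusted p = 0.0162). Ccne1, the cyclin E that drives entry into S phase, has 2 probes and no bound, and read 6.18, 5.93 and 6.05 in C and 6.35, 6.70, 6.59 and 6.69 in T (adjusted p = 0.0454). Of the 9 genes detected in C alone, 5 passed the test. Ctse, the endosomal protease cathepsin E, read 8.003, 8.778 and 7.973 in C and 5.942, 5.857, 5.978 and 5.964 in T, at least 3.96-fold lower in T (adjusted p = 0.000259), and kept its call in every alternative but the t-tests. Hmx2, a homeobox factor, read 7.08, 6.91 and 6.92 in C and 5.72, 6.06, 6.12 and 5.96 in T, at least 1.63-fold lower in T (adjusted p = 0.0131). Il25, a cytokine of the interleukin-17 family, read 7.24, 6.99 and 6.92 in C and 5.96, 6.21, 6.11 and 6.08 in T, at least 1.72-fold lower (adjusted p = 0.0482). Slit2, a secreted guidance cue, was at least 1.72-fold lower too (adjusted p = 0.0167), and Sh2d7 passed with no bound given, since it had 2 probes (adjusted p = 0.0415). Hmx2 and Slit2 did not pass without C1, Il25 with any 1 liver left out, or Sh2d7 with any but T1 left out.

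Of 29 genes known as markers of liver tumours or of fetal liver, 7 rose and 0 fell, with a median of 0.37 against 0.01 over all genes. Without T2 there were 4, without T3 or C2 3 and without C1 or C3 4. Afp, the fetal albumin-like protein used as a serum marker of hepatocellular carcinoma, read 6.36, 6.05 and 6.04 in C and 7.41, 9.17, 8.98 and 8.92 in T, a difference of 2.47 (SE 0.41, adjusted p = 0.0156). Cd63, a tetraspanin of late endosomes and exosomes, read 8.30, 7.91 and 7.76 in C and 9.14, 10.47, 10.22 and 10.10 in T, a difference of 1.99 (SE 0.31, adjusted p = 0.0114). T1 was the lowest of the T livers for both, and still above all C livers.

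Akr1c18, a progesterone-inactivating aldo-keto reductase, read 6.13, 5.83 and 6.02 in C and 7.39, 8.20, 8.27 and 8.55 in T, at least 3.35-fold higher in T (adjusted p = 0.0278). Gpc3, a heparan sulphate proteoglycan stained in the diagnosis of human liver cancer, was detected on 5 of 5 T arrays and 0 of 4 C arrays, and read 5.963, 5.940 and 5.927 in C and 6.264, 6.388, 6.246 and 6.850 in T (adjusted p = 0.0484). Akr1c18 did not pass without any 1 of C1, C2, C3, T2, T3 and T4, nor Gpc3 without any 1 of the first 5 of these. The imprinted RNA H19, chosen after its values were seen, read 6.18, 6.03 and 5.96 in C and 7.39, 8.90, 9.01 and 8.92 in T. It was not well above the background on any C array and did not pass the test (adjusted p = 0.205). Its spread in the fit, which takes in the 6 livers of the Gas1 arm, was wide (SE 1.05). T1 was again the lowest.

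**Figure D2:**
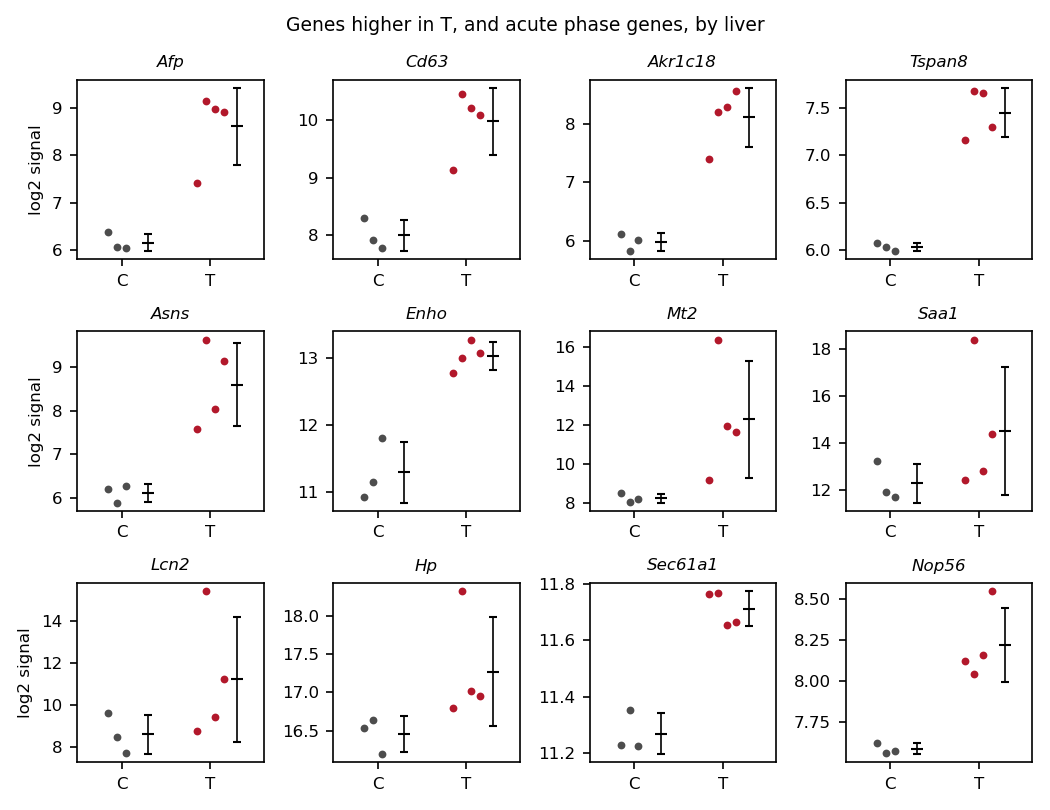
Log2 signal of 12 genes in each liver, grey for the 3 C livers and red for the 4 T livers, with the mean ± SD beside the points. T1 is the lowest T liver for Afp, Cd63, Akr1c18 and Tspan8, while T2 stands far above the rest for Mt2, Saa1, Lcn2 and Hp.

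Of 45 genes of S phase and mitosis, Ccne1 rose and 0 fell, and the median was 0.01. Mki67, a protein of dividing nuclei chosen after its values were seen, read 7.18, 6.11 and 6.36 in C and 6.55, 6.53, 6.67 and 6.64 in T (difference 0.05, SE 0.20), so the T livers lay within the range of the C livers. Of 25 p53 targets, 3 rose and 0 fell with a median of -0.003, and none passed without C2, T3 or T4. They were the nuclease Aen (0.65, adjusted p = 0.0278), the antiproliferative gene Btg2 (0.46, adjusted p = 0.0323) and the death receptor Tnfrsf10b, which was dim on all C arrays and 3 of the 5 T arrays. The p53 target Cdkn1a, chosen after its values were seen, differed by -0.41 (adjusted p = 0.102). The epidermal growth factor receptor Egfr read 10.49, 9.35 and 10.17 in C and 10.96, 11.43, 11.25 and 11.09 in T, a rise of 1.18 (SE 0.27, adjusted p = 0.0439). The adhesion protein E-cadherin, Cdh1, read 7.52, 6.81 and 7.13 in C and 8.003, 8.310, 8.027 and 8.103 in T, a rise of 0.96 (SE 0.17, adjusted p = 0.018). The groups did not overlap for either gene. Egfr passed without T1 but with no other liver left out, and Cdh1 failed without C2 or T3.

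Of 36 genes of fatty acid synthesis and desaturation, 6 fell and 1 rose, with a median of -0.40. For 18 every T liver was below every C liver, while 19.1% of all genes had no overlap in either direction. With median scaling the list had 2 rises, 0 falls and a median of 0.24, which is 0.41 below the detected genes, and with 75th percentile scaling 2 rises and 4 falls. Scd1, the main hepatic stearoyl-CoA desaturase, read 15.11, 14.24 and 14.80 in C and 13.004, 12.731, 11.941 and 12.407 in T, a difference of -2.19 (SE 0.34, adjusted p = 0.0114), or 0.219-fold. Its paralog Scd2, which is high in the newborn liver and low in the adult, went the other way and read 7.02, 6.36 and 6.66 in C and 7.92, 9.13, 8.70 and 7.99 in T, a difference of 1.75 (SE 0.38, adjusted p = 0.0337). The groups did not overlap for either desaturase, but Scd2 did not pass with any 1 liver other than T1 left out.

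Me1, the malic enzyme that supplies NADPH for the synthesis, read 12.11, 11.96 and 11.65 in C and 10.56, 9.15, 9.63 and 10.08 in T (difference -2.05, SE 0.29, adjusted p = 0.00992). Acss2, which makes cytosolic acetyl-CoA from acetate, read 11.45, 11.20 and 11.58 in C and 9.77, 9.56, 9.01 and 10.20 in T (difference -1.78, SE 0.21, adjusted p = 0.00423). The elongases Elovl6 and Elovl5 fell by 1.67 and 1.61 on the log2 scale (adjusted p = 0.0337 and 0.0114), and Plin2, the coat protein of lipid droplets, fell by 1.07 (adjusted p = 0.0255). Elovl5 and Plin2 were chosen after their values were seen, and Elovl6 did not pass without any 1 of C1, C2, C3, T2 and T3. The synthase Fasn and the citrate lyase Acly, chosen after their values were seen, were lower in every T liver than in every C liver, but their differences of -1.33 and -1.27 did not pass the test (adjusted p = 0.118 and 0.0508). Srebf1, the transcription factor that drives this pathway, was also chosen after its values were seen. It differed by 0.06 (adjusted p = 0.948) and its groups overlapped.

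Of 25 genes of sterol synthesis, 3 fell and 0 rose, and the median was -0.43. For 11 the T livers lay below all C livers (19.1% of all genes had no overlap, in either direction). With median scaling 2 rose, 0 fell and the median was 0.34, or 0.30 below the detected genes, and without T3 or C2 none passed the test. Pmvk, phosphomevalonate kinase, read 12.54, 12.28 and 12.53 in C and 11.70, 11.34, 10.85 and 11.37 in T, a difference of -1.13 (SE 0.21, adjusted p = 0.0212). The later enzymes Hsd17b7 and Tm7sf2 fell by 0.75 and 0.68 (adjusted p = 0.0196 and 0.0301).

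**Figure D3:**
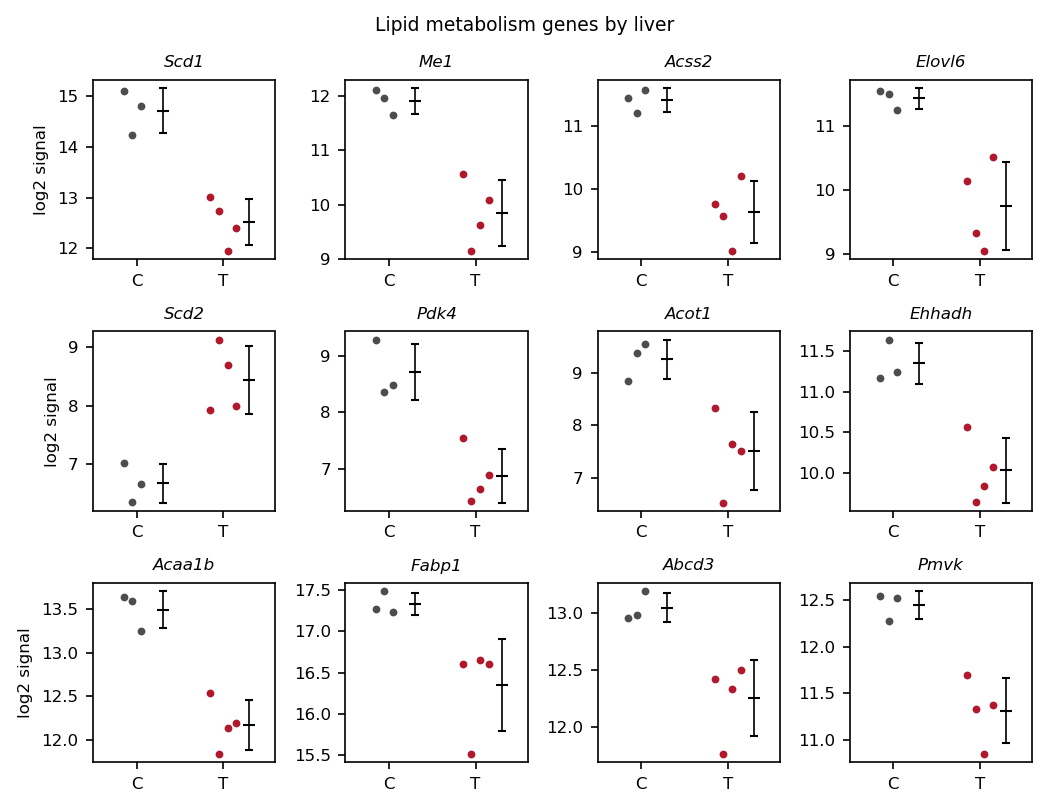
Log2 signal of 12 genes of lipid metabolism in each liver, grey for the 3 C livers and red for the 4 T livers, with the mean ± SD beside the points. Scd2 is higher in all T livers and the other 11 genes are lower in all T livers than in any C liver.

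The largest share of falls was among genes that burn fatty acids. Of 51 genes of fatty acid oxidation and targets of the nuclear receptor PPARα, 13 fell (25.5%, against 1.17% of all genes) and 0 rose. All genes include many that were not detected, while 46 of the 51 were detected on every C array or every T array. Among the 8546 genes detected on every C and T array 207 fell, a higher share than over all genes. The differences were below 0 for 46 of the 51, and the median was -0.32. For 23 all T livers were below all C livers (19.1% of all genes had no overlap, in either direction). With median scaling 2 rose, 0 fell and the median was 0.41, or 0.24 below the detected genes. The count of falls was 2 without C1, C2 or T4, 3 without T3, 5 without C3, 7 without T2 and 19 without T1, and the median stayed between -0.43 and -0.26 throughout. The list's mean signal was 10.48, 10.73 and 10.58 in the C livers and 10.46, 9.84, 10.14 and 10.10 in the T livers, so T1 lay next to the C livers and T2 lowest.

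Pdk4, the kinase that shuts off glucose oxidation when fat is burned, read 9.29, 8.37 and 8.48 in C and 7.54, 6.43, 6.65 and 6.89 in T, a difference of -1.84 (SE 0.41, adjusted p = 0.0394). Acot1, an acyl-CoA thioesterase, read 8.84, 9.38 and 9.55 in C and 8.33, 6.53, 7.65 and 7.51 in T, a difference of -1.75 (SE 0.33, adjusted p = 0.0236). The peroxisomal enzymes Ehhadh and Acaa1b, a hydratase-dehydrogenase and a thiolase, fell by 1.32 and 1.31 (adjusted p = 0.0461 and 0.014). Fabp1, which carries fatty acids in the cytosol, read 17.28, 17.49 and 17.24 in C and 16.61, 15.51, 16.66 and 16.61 in T (difference -0.99, SE 0.22, adjusted p = 0.0415), with T2 far below the other T livers. Cyp4a12a, which hydroxylates fatty acids and is higher in males, fell by 0.98 (adjusted p = 0.019). Ppara itself differed by 0.08 (adjusted p = 0.817) and Cpt1a, the gate of fatty acids into mitochondria, by -0.14 (adjusted p = 0.444). Both were chosen after their values were seen, and their groups overlapped.

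Of 21 genes of peroxisome assembly and membrane, 4 fell and 0 rose, and the median was -0.16, or 0.16 below the detected genes also with median scaling, under which 1 rose and 0 fell. Without C2 none fell, without C1 or T3 1 did, and without T2 or T4 2 did. Abcd3, the most abundant transporter of that membrane, read 12.96, 12.98 and 13.19 in C and 12.42, 11.76, 12.33 and 12.49 in T, a difference of -0.79 (SE 0.15, adjusted p = 0.0203). The membrane protein Pxmp4, the assembly factor Pex16 and the hydrogen peroxide-degrading catalase, Cat, fell by 0.67, 0.56 and 0.64 (adjusted p = 0.0244, 0.014 and 0.0333). Of 76 genes of oxidative phosphorylation, 3 fell and 0 rose, with a median of -0.10, and none passed without C1, C2, T2, T3 or T4. They were Ndufa9 of complex I (-0.61, adjusted p = 0.03) and Sdhb and Sdha of complex II (-0.44 and -0.39, adjusted p = 0.0344 and 0.0475). Median and 75th percentile scaling each turned the last list around, to 15 rises and 0 falls and to a median 0.23 above the detected genes.

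**Figure D4:**
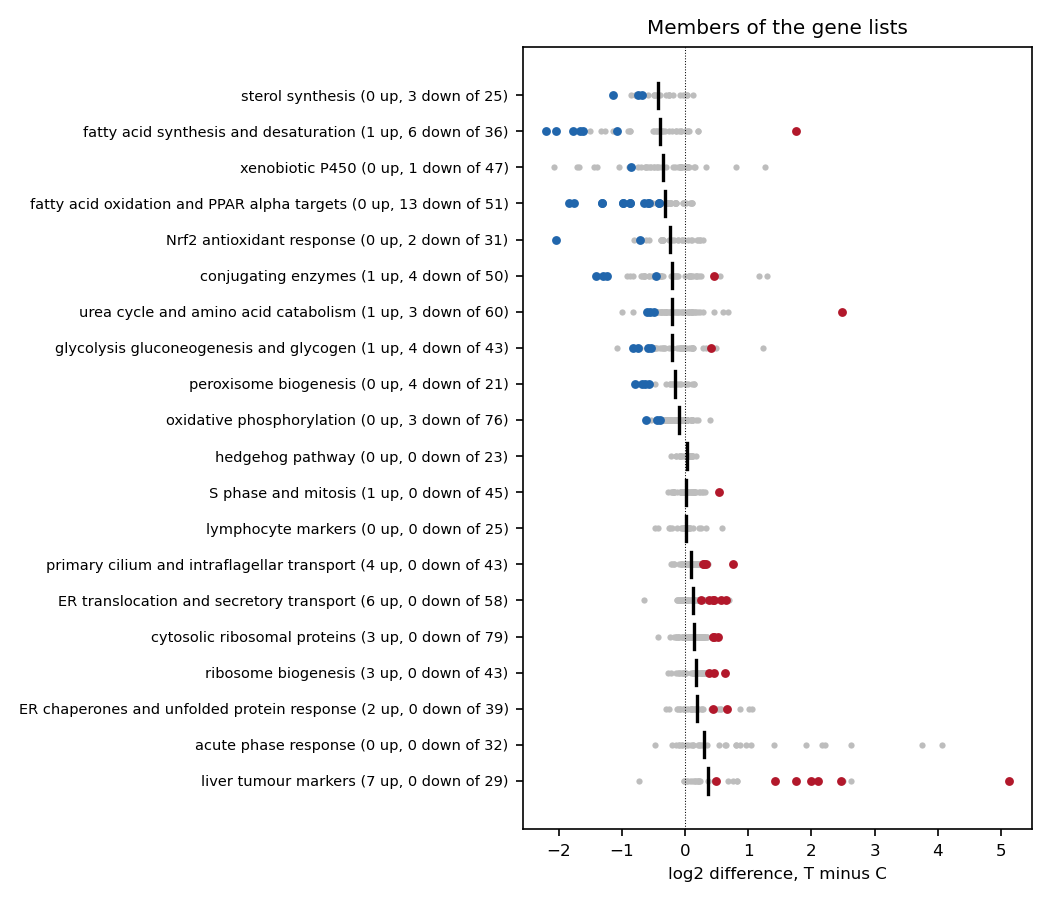
Log2 difference, T minus C, of each measured member of 20 gene lists, with members called higher in red, called lower in blue, others in grey, and the list's median as a black bar. The medians of these 20, picked from 54 lists, run from sterol synthesis at -0.43 to the tumour markers at 0.37. Clock output, which is not shown, had a higher median of 0.48.

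Of 47 measured P450 enzymes of foreign compound metabolism, Cyp2c38 alone passed the test (-0.86, adjusted p = 0.049), and it failed with any 1 liver left out, although the median was -0.35 and 36 of the 47 differences were below 0. With median scaling the median was 0.37, or 0.27 below the detected genes, and 2 rose. Cyp2b10, a target of the receptor CAR, varied widely among the C livers, with 8.44, 11.42 and 10.50 against 8.63, 7.37, 8.37 and 7.83 in T (adjusted p = 0.0966), and Cyp2e1, the main enzyme that activates DEN, differed by -0.50 (adjusted p = 0.183). Both were chosen after their values were seen. Among 50 conjugating enzymes 4 fell and 1 rose, with a median of -0.21. The falls were the glutathione transferases Gstt3 (-1.41, adjusted p = 0.0407, 1 T liver missing in the fit), Gstm6 (-1.30, adjusted p = 0.0196) and Gstm7 (-0.46, adjusted p = 0.0196) and the methyltransferase Inmt (-1.24, adjusted p = 0.0182), while the glucuronosyltransferase Ugt2b35 rose by 0.47 (adjusted p = 0.0207). With median scaling 3 members rose and 0 fell. Without T2, whose mean over this list was the lowest, 9.74 against 10.15 to 10.21 in the other T livers, 2 fell and 0 rose, and without C1 or T3 1 fell.

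Of 31 targets of Nrf2, the factor of the antioxidant response, 2 fell and 0 rose. They were Me1 and Pgd (-0.71, adjusted p = 0.0175), which both make NADPH, and Pgd differed by 0.16 with median scaling. Of 38 genes of lipoprotein metabolism 4 fell and 0 rose. Pltp, the phospholipid transfer protein of plasma, read 10.39, 10.49 and 10.31 in C and 8.03, 7.16, 7.65 and 7.33 in T, a difference of -2.86 (SE 0.34, adjusted p = 0.00423), and kept its call in every alternative but the t-tests. The cholesteryl ester hydrolase Nceh1 fell by 0.46 (adjusted p = 0.0114), also with any 1 liver left out. The lysosomal lipase Lipa (-0.93, adjusted p = 0.0296) and the lipid transfer protein Mttp (-0.46, adjusted p = 0.0206) fell as well, but neither passed without C1, C2, T3 or T4, nor Lipa without C3 or T2. Mttp was higher by 0.47 with median scaling and by 0.15 with 75th percentile scaling. The water channel Aqp8 was among the largest falls of all genes. It read 12.87, 12.42 and 12.62 in C and 11.25, 9.62, 10.44 and 10.51 in T, a difference of -2.18 (SE 0.32, adjusted p = 0.0114), with no overlap.

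Among 60 genes of the urea cycle and amino acid breakdown 3 fell and 1 rose, with a median of -0.20, and none fell without C2. The list went to 11 rises, 0 falls and 0.11 above the detected genes with median scaling. The riser was Asns, asparagine synthetase, which makes an amino acid rather than breaking one down. It read 6.19, 5.88 and 6.26 in C and 7.57, 9.63, 8.04 and 9.14 in T, a difference of 2.48 (SE 0.60, adjusted p = 0.0497). The 4 T livers were all above the C livers, and spread over more than 2 log2 units. The adjusted p of Asns was 0.0779 to 0.136 when any liver but T1 was left out and 0.029 without T1, and it did not pass with cyclic loess, trended and robust eBayes or the replicate block. The falls were Ass1 of the urea cycle (-0.60, adjusted p = 0.0133), the propionyl-CoA carboxylase subunit Pccb (-0.55, adjusted p = 0.014) and Haao of tryptophan breakdown (-0.49, adjusted p = 0.0182). All 3 became higher with median scaling, by 0.49, 0.01 and 0.63, values no greater than that of the detected genes.

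Of 43 genes of glycolysis, gluconeogenesis and glycogen 4 fell and 1 rose, with a median of -0.20, and with median scaling 5 rose and 0 fell. Without C1 1 fell and without C2, T2 or T3 2 did. Eno1, an enolase, fell by 0.75 (adjusted p = 0.031), with 1 C liver missing in the fit. Pgk1, phosphoglycerate kinase, read 12.28, 11.99 and 12.17 in C and 11.72, 11.57, 11.51 and 11.46 in T (difference -0.58, SE 0.088, adjusted p = 0.0114). The glycogen branching enzyme Gbe1 fell by 0.54 (adjusted p = 0.0155), and Pygb, the glycogen phosphorylase typical of brain and fetal tissue, rose by 0.41 (adjusted p = 0.0478). Pgk1 and Gbe1 were higher by 0.39 and 0.45 with median scaling. Pck1, the first enzyme of gluconeogenesis, chosen after its values were seen, differed by 1.23 (adjusted p = 0.124).

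Of 58 genes of ER translocation and secretory transport 6 rose and 0 fell, with a median of 0.13. All T livers were above all C livers for 21 (19.1% of all genes had no overlap, in either direction). None of the 6 passed without C2, C3, T2, T3 or T4. Sec61a1, the pore through which nascent proteins enter the ER, read 11.23, 11.35 and 11.23 in C and 11.76, 11.77, 11.65 and 11.66 in T, a difference of 0.44 (SE 0.10, adjusted p = 0.0461). The T livers were tight and did not overlap with C. The cargo receptors Tmed3 and Tmed9 rose by 0.65 and 0.46 (adjusted p = 0.0432 and 0.049) and the nucleotide sugar transporter Slc35b1 by 0.57 (adjusted p = 0.0443).

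Of 39 ER chaperones and genes of the unfolded protein response 2 rose and 0 fell, with a median of 0.19, and 30 of the 39 differences were above 0. Without C2, C3, T2 or T3 none passed. The co-chaperone Dnajb11 read 8.50, 8.22 and 8.25 in C and 8.89, 9.06, 9.04 and 8.99 in T, a difference of 0.67 (SE 0.15, adjusted p = 0.0394), and Txndc11, a thioredoxin-like protein, rose by 0.44 (adjusted p = 0.0333). Hspa5, the chaperone BiP, read 13.13, 13.12 and 12.49 in C and 13.66, 13.35, 13.30 and 13.22 in T (difference 0.47, adjusted p = 0.155). Creld2, a small ER protein, read 10.68, 9.77 and 9.70 in C and 11.28, 10.83, 10.72 and 10.87 in T (difference 0.87, adjusted p = 0.0871). These 2 genes, chosen after their values were seen, did not pass the test, though the groups did not overlap.

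Hspa5 and Creld2 are shown with their promoters because they hold the ER stress element, the site of the factors that induce chaperones when unfolded proteins pile up. In the 250 bases before the RefSeq start (GRCm38.p6), the element was found on either strand in 9 of the 31 chaperone list members with a promoter sequence (29%), against 0.149% of the 14790 tested genes with one and 0.13% of all 27025 symbols with one. It was in none of the promoters of genes that rose or fell. The differences of all tested genes with the element ran from -1.14 (Acacb) to 1.05 (Derl3). They were 0.19 for Calr, 0.14 for Pdia6 and 0.09 for Canx, all smaller than those of the 2 genes shown. Capitals mark the match, which lies on the minus strand in Creld2.
Hspa5, chr2:34771995-34772073 plus strand: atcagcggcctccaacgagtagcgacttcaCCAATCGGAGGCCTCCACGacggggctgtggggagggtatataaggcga
Creld2, chr15:88819490-88819568 plus strand: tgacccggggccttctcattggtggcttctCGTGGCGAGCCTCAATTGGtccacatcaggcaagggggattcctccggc

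Of 79 ribosomal protein genes 3 rose and 0 fell, 65 differences were above 0, and the median was 0.15. All T livers were above all C livers for 29 (19.1% of all genes had no overlap, in either direction). The risers were Rplp0 of the stalk (0.52, adjusted p = 0.0217), Rps27 (0.47, adjusted p = 0.0156) and Rpsa (0.44, adjusted p = 0.0422) of the small subunit. Without C1 or T3 none of the 3 passed. The many near-identical pseudogenes of ribosomal proteins can share signal with these probes. Of 43 genes of ribosome biogenesis 3 rose and 0 fell, with a median of 0.17, and under each liver left out at least 2 rose. Nop56, a core protein of the nucleolar particles that guide methylation of ribosomal RNA, read 7.62, 7.56 and 7.57 in C and 8.12, 8.04, 8.15 and 8.55 in T, a difference of 0.63 (SE 0.095, adjusted p = 0.0114). Nol12, a nucleolar protein, rose by 0.46 and Polr1e, a subunit of RNA polymerase I, by 0.38 (adjusted p = 0.0443 and 0.0114). For each of these 6 genes the T livers did not overlap with C. None of the 6 fell under any scaling tried. However, median scaling moved the detected genes up in T by 0.64 and percentile scaling by 0.32. The absence of falls is therefore no test of these rises.

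Of 32 complement genes 2 rose and 0 fell, and none passed without C2, T2, T3 or T4. C9, the last component of the membrane attack complex, read 10.26, 9.94 and 10.01 in C and 10.59, 11.92, 11.82 and 11.32 in T, a difference of 1.34 (SE 0.28, adjusted p = 0.0301). Of 43 genes of the primary cilium 4 rose and 0 fell, among them Ift122 of the intraflagellar transport machinery, with 6.466, 6.396 and 6.451 in C and 6.653, 6.854, 6.749 and 6.688 in T (difference 0.30, SE 0.056, adjusted p = 0.0231). The cilium list had a median of 0.09, which lay 0.36 below the detected genes with median scaling, and none of the 4 passed without C1, C2 or T3. Enho, the precursor of the liver-secreted peptide adropin, was among the largest rises. It read 10.92, 11.15 and 11.80 in C and 12.773, 12.997, 13.276 and 13.074 in T, a difference of 1.74 (SE 0.22, adjusted p = 0.00525).

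The list of the molecular clock's output genes held large rises. Of 16 measured, 2 rose and 0 fell, with a median of 0.48. Dbp and Tef are factors of 1 family that bind the D-box. Tef read 10.10, 10.50 and 10.42 in C and 11.35, 12.25, 11.73 and 12.14 in T, a difference of 1.53 (SE 0.33, adjusted p = 0.0353), and Dbp read 7.03, 8.26 and 7.08 in C and 9.37, 11.99, 11.44 and 11.90 in T (difference 3.72, SE 0.67, adjusted p = 0.0196). T1 was the lowest T liver for both. Of 18 core clock genes 2 rose and 0 fell, with a median of 0.10. They were Nr1d1 and Nr1d2, the repressors REV-ERBα and REV-ERBβ, which rose by 0.97 each (adjusted p = 0.0232 and 0.0407). The activator Arntl, chosen after its values were seen, read 8.09, 7.65 and 8.02 in C and 7.72, 6.47, 6.77 and 6.57 in T (difference -1.04, adjusted p = 0.0683), with T1 within the C range. The hour of sampling of each animal is not given in the sources used here, so a difference of hour and one of treatment cannot be told apart. Neither list had more than 1 rise without C1, C2, C3, T2, T3 or T4, and for the core clock the median lay 0.21 below the detected genes with median scaling.

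The promoters of genes with a D-box are shown because Dbp and Tef rose. The search was for TTATGTAA on either strand in the same 250 bases. It was found before 3 of the 182 genes that rose and had a promoter sequence (1.65%) and 2 of the 195 that fell (1.03%), against 0.967% of all tested genes and 0.977% of all promoters. The 3 that rose were Akr1c18, Miox and the creatine transporter Slc16a12, and the 2 that fell were the prion protein gene Prnp and the olfactory receptor Olfr352. Slc16a12, Prnp and Olfr352 were chosen after their values were seen. Per3 and Alb, of which neither passed the test, held 2 matches each. Capitals mark the D-box, and the letters TTACATAA are its other strand. A match of letters is a description and not a binding site.
Akr1c18, chr13:4150801-4150868 minus strand: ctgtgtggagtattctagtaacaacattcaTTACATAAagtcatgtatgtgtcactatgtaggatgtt
Miox, chr15:89334385-89334452 plus strand: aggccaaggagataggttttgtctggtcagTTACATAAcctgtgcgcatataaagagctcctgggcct
Slc16a12, chr19:34747367-34747434 minus strand: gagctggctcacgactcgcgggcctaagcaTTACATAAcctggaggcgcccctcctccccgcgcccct
Per3, chr4:151044786-151044900 minus strand: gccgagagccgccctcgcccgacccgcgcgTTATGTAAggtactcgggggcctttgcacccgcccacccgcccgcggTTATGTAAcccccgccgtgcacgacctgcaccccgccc
Alb, chr5:90460620-90460703 plus strand: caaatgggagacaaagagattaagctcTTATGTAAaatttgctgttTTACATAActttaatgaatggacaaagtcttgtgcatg

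Miox, an oxygenase that opens the ring of myo-inositol, read 6.32, 6.29 and 6.24 in C and 7.21, 8.70, 8.13 and 8.60 in T, a difference of 1.88 (SE 0.30, adjusted p = 0.0131). Slc16a12 read 7.85, 7.95 and 7.89 in C and 8.45, 8.86, 8.19 and 8.53 in T, a difference of 0.61 (SE 0.13, adjusted p = 0.0388). For both genes all T livers were above all C livers. Per3, a clock gene chosen after its values were seen, read 5.86, 6.03 and 5.88 in C and 6.44, 7.52, 6.76 and 7.16 in T (adjusted p = 0.101), and it was detected on all T arrays and no C array. The E-box CACGTG, the site of the core clock activators, was before 10.4% of the genes that rose, 10.3% of those that fell and 8.03% of all tested genes with a promoter sequence. The sterol regulatory element TCACNCCAC was before 1.65%, 3.08% and 1.23%. The direct repeat bound by PPARα and other nuclear receptors, with 1 base between the repeats, was before none of those that rose or fell and 0.0541% of all tested genes. Matches of 2 different motifs overlapped in 1 promoter in all.

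The acute phase genes, which hepatocytes raise in inflammation, were uneven among the T livers. None of 32 passed the test, 11 had an unadjusted p under 0.05 in the upward direction and 1 downwards, and the median was 0.31. Such a p, in either direction, was seen for 4463 of all 22032 genes. The list's mean signal was 11.01, 10.63 and 10.69 in the C livers and 10.86, 13.07, 11.07 and 11.25 in the T livers. T2 stood far above all others. Without T2 the median was 0.10 and 1 gene rose, and without T1 it was 0.55 and 2 rose. With median scaling 16 of the 32 rose and 0 fell.

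The metallothionein Mt2, which binds zinc, read 8.49, 8.04 and 8.17 in C and 9.18, 16.40, 11.94 and 11.66 in T, a difference of 4.06 (SE 1.13, adjusted p = 0.0727). Its neighbour Mt1 read 9.31, 8.90 and 9.59 in C and 9.80, 16.74, 12.72 and 12.81 in T, a difference of 3.75 (SE 1.09, adjusted p = 0.0851). The T livers were all above C for both genes, with T1 close to C and T2 above the rest by more than 3 log2 units. The serum amyloid Saa1, chosen after its values were seen, read 13.23, 11.91 and 11.68 in C and 12.39, 18.39, 12.80 and 14.35 in T (adjusted p = 0.263), so T1 and T3 lay within the C range. Lcn2, a siderophore-binding protein also chosen so, read 9.58, 8.46 and 7.70 in C and 8.76, 15.40, 9.43 and 11.21 in T (adjusted p = 0.237).

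Few markers of the other cells of the liver passed the test. Of 24 Kupffer cell and macrophage markers, Emr1, the antigen F4/80, rose by 0.31 (adjusted p = 0.0262) and 0 fell, with a median of 0.14, and it did not pass without C1, C2, T2 or T3. With median scaling 7 of the 24 rose. The list's mean was 6.96 to 7.31 in C and 7.19 to 7.41 in T. By limma none of the 25 lymphocyte markers, 22 endothelial markers, 14 neutrophil markers or 19 genes of antigen presentation passed the test, and at an unadjusted p under 0.05 they had 5, 4, 2 and 5 genes in either direction. Over all genes it was 4463 of 22032, a similar share. With median scaling 2 lymphocyte, 4 endothelial and 1 neutrophil marker rose. Of 21 stellate cell and fibroblast markers 2 fell and 0 rose, the matrix protein Ecm1 (-0.86, adjusted p = 0.0416) and the neurotrophin receptor Ngfr (-0.69, adjusted p = 0.0446). That list's mean was 7.71 to 8.09 in C and 7.45 to 7.82 in T, so the groups overlapped, and with any 1 liver other than T1 left out the list had 0 falls. Of 21 bile duct and progenitor markers the anion exchanger Slc4a2 fell (-0.48, adjusted p = 0.0114), but it was higher by 0.42 with median scaling and by 0.10 with 75th percentile scaling. Of 23 hedgehog genes 0 passed the test, and 1 in each direction had an unadjusted p under 0.05, a smaller share than over all genes.

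Of 15 erythroid markers, 7 had all T livers above all C livers and 1 had them below (19.1% of all genes had no overlap, in either direction). The list's mean was 7.20, 7.47 and 7.67 in C and 7.819, 7.998, 7.916 and 7.906 in T. Among the 15 Tfrc alone, the transferrin receptor, passed the test (0.21, adjusted p = 0.0394), though it differed by -0.07 with 75th percentile scaling. The haemoglobin genes, chosen after their values were seen, did not. Hbb-b1 read 9.48, 10.13 and 11.49 in C and 11.84, 12.64, 12.34 and 12.18 in T (difference 1.89, adjusted p = 0.106), and Hba-a1 read 11.28, 11.73 and 12.73 in C and 13.11, 13.57, 13.45 and 13.07 in T (difference 1.39, adjusted p = 0.148). The part of blood cells in the gene values was not tested.

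**Figure D5:**
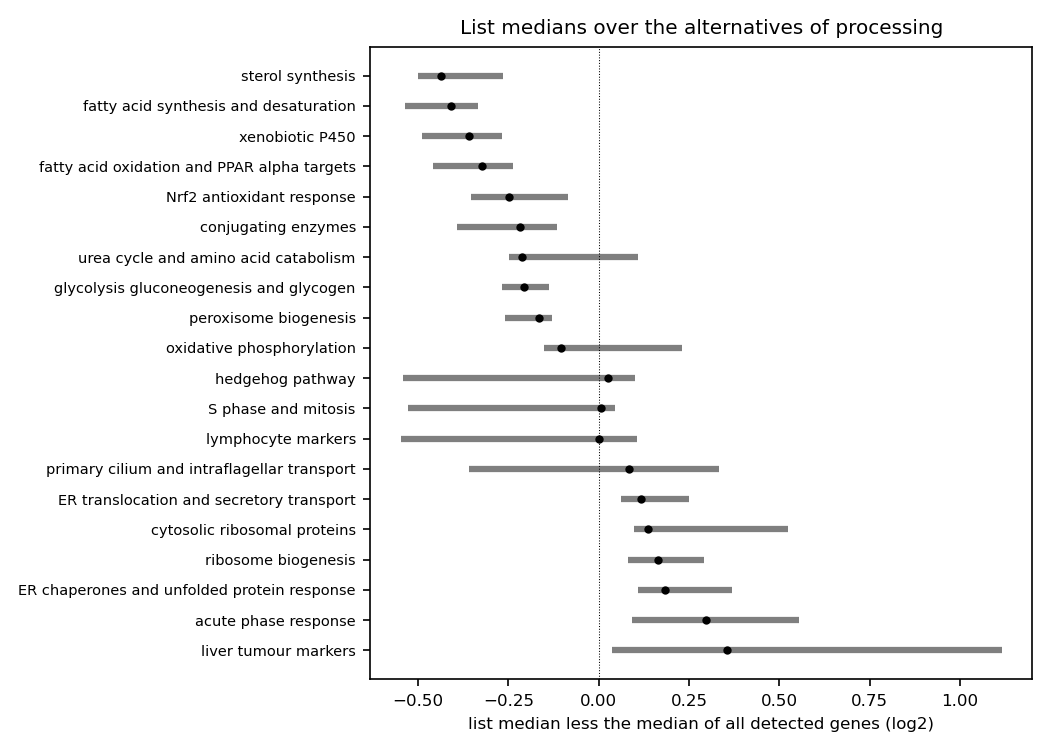
Median log2 difference of 20 gene lists less the median of all genes detected on every C and T array, as points for the processing used in the text and as bars for the lowest and highest value over 22 alternatives. Some of these alternatives alter only the error term and not the medians. The bars of oxidative phosphorylation, urea cycle, hedgehog, S phase, lymphocyte and cilium genes cross 0, and the others do not.

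Of 16251 probes for long intergenic noncoding RNAs, 15 changed (0.0923%), 5 upwards and 10 downwards. The count was 0 without C2, T2, T3 or T4 and 265 without C3. In 2 places a pair of neighbouring probes moved alike, and they are shown for that reason. On the minus strand of chromosome 6 (mm9), within the transcribed region 122741562 to 122743423 as the array design gives it, probe A_30_P01018332 read 8.81, 9.04 and 8.83 in C and 8.03, 7.61, 7.94 and 7.76 in T, a difference of -1.06 (SE 0.13, adjusted p = 0.0187). Probe A_30_P01033408 of the same region read 11.36, 11.65 and 11.27 in C and 10.57, 9.94, 10.32 and 10.49 in T, a difference of -1.10 (SE 0.17, adjusted p = 0.0313). All T livers were below all C livers for both.
A_30_P01018332, chr6:122742141-122742200: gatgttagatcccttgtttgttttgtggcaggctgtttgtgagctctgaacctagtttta
A_30_P01033408, chr6:122741589-122741648: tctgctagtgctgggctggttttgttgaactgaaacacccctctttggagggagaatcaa

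On the plus strand of chromosome 16, probe A_30_P01026470 read 10.12, 9.73 and 9.98 in C and 10.29, 10.53, 10.51 and 10.68 in T (difference 0.56, SE 0.095, adjusted p = 0.0465), and probe A_30_P01018802 read 8.11, 8.02 and 8.19 in C and 8.50, 8.80, 8.93 and 9.07 in T (difference 0.72, SE 0.12, adjusted p = 0.0465). Both were higher in every T liver than in every C liver.
A_30_P01026470, chr16:43639015-43639074: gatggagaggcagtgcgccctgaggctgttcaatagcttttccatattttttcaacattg
A_30_P01018802, chr16:43641861-43641920: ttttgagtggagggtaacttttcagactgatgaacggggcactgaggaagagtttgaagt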

How the data were processed

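Liver RNA of 15 samples was labelled with Cy3 and hybridised to single-colour Agilent mouse arrays. The authors deposited spot and local background intensity values as read by Agilent Feature Extraction, not normalized between arrays, with flags of 0 or 1 that mark spots as above background or as outliers. They also deposited log2 values of the series after normexp and quantile normalization, used here as an alternative. The mean intensity was corrected with normexp (offset 50), log2-transformed and quantile normalized over 59305 spots, after control spots and outlier spots (218 to 1625 on the C and T arrays) were left out. Probes of a gene were centred and averaged, which gave 22032 symbols from 29522 probes, named as in the array design. Another 9908 probes without a symbol were not used, and dim probes were kept.

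Arrays of 1 RNA code were averaged, since the SD of their log2 differences was 0.146 in C and 0.143 in T, against at least 0.291 and 0.235 for other pairs. The 13 livers of groups C, T and the Gas1 arm shared 1 estimate of the spread in limma 3.58.1 (R 4.3.3), with the contrast T minus C, eBayes and Benjamini-Hochberg adjustment over all genes. The script was tested on simulated data. The number of livers limits the precision. Spots above background numbered 15707 to 27681 on the C arrays and 19970 to 22638 on the T arrays, and none was saturated. For the extraction, TRIzol stands in the records and a spin-column kit in the methods.

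The comparison and the 54 gene lists were chosen with earlier results of these data known. Named genes are the 12 largest rises and falls without overlap and above background on all arrays of the higher group, up to 4 called members per list and direction, or the 2 of lowest p where a list had none called, called genes detected in 1 group alone, and Alb, Gas1 and Arfrp1. Some genes of this rule are not reported here. Others are marked as chosen after their values were seen. A gene of several lists counts in each. Lists were described by counts and medians and had no test of their own. Other alternatives were the scaling, the normexp offset, the software's processed signal, dim probes left out, slide, replicate block, leaving out each liver and the methods' t-test. Promoters are from RefSeq, GRCm38.p6, and 14790 of the symbols matched. Probe positions are those of the files, mm9.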

Additional observations from a re-analysis of the deposited data

Results flagged for a closer look

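The sets of values looked at numbered 199, each of the 4 T livers, the 4 C arrays or the 5 T arrays. In 10 of them 1 value was set apart from the rest, against about 1 in 20 by chance. T2 was the value apart in 5 of them. It was the lowest T liver for Fabp1 (15.51 against 16.61 to 16.66), Sdhb (11.77 against 12.05 to 12.07) and Cyp2c38 (9.12 against 9.50 to 9.58). It was also lowest in the mean signal of the conjugating enzymes (9.74 against 10.15 to 10.21) and of the male-biased liver genes (11.93 against 12.23 to 12.27). T1 was apart in 3. It was the lowest for Afp (7.41 against 8.92 to 9.17) and Slit2 (5.99 against 6.17 to 6.20, not well above background on any T array, so with no measured order) and the highest for Gstm7 (8.19 against 7.98 to 8.01). T4 was the highest for Igf1r (6.50 against 6.29 to 6.32), which did not pass the test between T and C (adjusted p = 0.0529). Array C1 had 218 outlier spots, against 1392 to 1625 on the other C arrays.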

How the results depend on the processing

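Against 525 genes, the count was 2832 with median scaling (99.5% of them upwards, 274 shared with the 525 in direction), 2313 with 75th percentile scaling (77.9% upwards), 185 with cyclic loess, 1947 with every array as a separate mouse, 799 with the slide as a term and 0 in both forms of the methods' t-test after adjustment (3846 and 2961 at an unadjusted p under 0.05, against 4463 in limma). Leaving out 1 liver gave 89 to 761. With C and T alone in the fit the count was 359, and 237 of the 525 were among these genes. Against 15 lincRNA probes, the counts were 8 with median scaling, 897 with 75th percentile scaling, 0 with cyclic loess (1665 at an unadjusted p under 0.05), 72 with a normexp offset of 16, 98 of 1682 with dim probes left out, 406 with every array separate, 142 with the slide as a term, 240 with C and T alone in the fit, 32 with trended and robust eBayes, and 2 and 0 in the methods' t-test, and leaving out 1 liver gave 0 to 265. The spots above background were 34729.5 in C and 33332 in T as medians by the looser flag for positive and significant spots. A block on the replicate number left 268 genes (189 shared) and 193 lincRNA probes, but the titles do not say that the numbers pair livers of different groups. C and T livers of the same number correlated by 0.012, 0.0734 and 0.1294 in their deviations. Livers of unlike number were not correlated for comparison, so these values cannot decide whether the numbers pair livers.

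Scaling moved the detected genes up by 0.64 (median) and 0.32 (75th percentile), and some named genes then changed direction. With median scaling these genes, lower in T with quantile normalization, were higher in T, all by less than 0.64: Pgd by 0.16, Aldh1a1 by 0.24, Lipa by 0.037, Mttp by 0.47, Slco2b1 by 0.32, Slc4a2 by 0.42, Gstm7 by 0.28, Pgk1 by 0.39, Gbe1 by 0.45, Ttr by 0.18, Fabp1 by 0.10, Cpox by 0.43, Cyp4a12a by 0.004, Ndufa9 by 0.37, Sdhb by 0.57, Sdha by 0.60, Ass1 by 0.49, Abcd3 by 0.21, Pxmp4 by 0.12, Cat by 0.35, Pex16 by 0.43, Hsd17b7 by 0.032, Tm7sf2 by 0.29, Pccb by 0.0077 and Haao by 0.63. With 75th percentile scaling, so were Mttp by 0.15, Slc4a2 by 0.10, Pgk1 by 0.071, Gbe1 by 0.13, Cpox by 0.11, Ndufa9 by 0.053, Sdhb by 0.25, Sdha by 0.28, Ass1 by 0.17, Cat by 0.029, Pex16 by 0.11 and Haao by 0.31, all below 0.32. There Tfrc, Ctrl and Tnfrsf10b, higher in T with quantile normalization, differed by -0.075, -0.017 and -0.048. Of the 115 named genes that passed the test, 82 kept their call in 11 or more of the 22 alternatives and 10 in all but the t-tests (Cd63, Ctse, Dnaic1, Enho, Miox, Nop56, Pltp, Rdh16, Tff3 and Tspan8), while 6 lost it in every fit that left out 1 liver. No other alternative reversed a named gene.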

Other observations

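Il25 and Sh2d7, which were detected in the C livers alone, are known from tuft cells of the gut. Other genes of tuft cells, chosen after these values were seen, were near the background in both groups. Trpm5, the channel of these cells, had means of 5.92 in C and 6.01 in T, and their factor Pou2f3 had 5.96 in C and 5.98 in T. Neither was detected on any C or T array. Arfrp1, which the study used as a control gene, read 7.89, 7.54 and 7.91 in C and 7.36, 7.33, 7.45 and 7.41 in T (difference -0.39, adjusted p = 0.0816).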
